A study of Homo sapiens with 12 samples.

Results

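The olfactory receptor genes of human chromosome 11 are described here in HepG2/C3A cells, an established line from a liver tumour. They were taken from RefSeq as the protein-coding genes of that chromosome whose symbol is OR followed by a number, 1 or 2 letters and a number. The rule found 171 genes. Of these, 3 (OR8U8, OR8U9 and OR9G9) have positions in the RefSeq table that run along scaffolds and not along the assembled chromosome. They were not analysed by position, which left 168 genes out of 19884 protein-coding genes placed on the assembled chromosomes. The 1129 other protein-coding genes of chromosome 11 and the 219 olfactory receptor genes of other chromosomes served for comparison.

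CUT&Tag, in which an antibody guides a transposase to chromatin, was run with an antibody to histone H3 trimethylated at lysine 27 (H3K27me3) and with one to succinylated lysine on any protein (Ksu). Cells of the same line were grown for 48 h with 10 mM sodium succinate, added from a solution in sterile water, or served as control. Each antibody and treatment had 2 libraries, labelled as biological replicates, and 8 peak lists were analysed. The 4 IgG samples of the study were not analysed here, and the background of the antibodies is therefore not known for these values.

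Olfactory receptors are G protein-coupled receptors that detect odorants in the olfactory epithelium, where each sensory neuron expresses essentially a single receptor gene. Their genes lie in large genomic clusters, and class I receptors, related to those of fish, form a cluster of their own on chromosome 11. H3K27me3 is written by the Polycomb repressive complex PRC2 and is known chiefly from CpG-rich promoters of silent developmental genes, whereas olfactory receptor clusters are known from work in the olfactory epithelium to be packed in constitutive heterochromatin. Lysine succinylation is a modification formed from succinyl-CoA, and the antibody used here does not tell which protein carries it.

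The 168 genes were short. Their gene bodies were 912 to 165335 bp long with a median of 1103 bp, against a median of 18221 bp for the other genes of the chromosome, and OR51B5 was the longest. A total of 163 lay in 8 cluster spans, defined as runs of at least 3 members with gaps of at most 500 kb, which covered 5711.56 kb. Span 1 ran from 4367263 to 6200186 (GRCh38), from OR52B4 to OR52W1, and held 55 genes, all of class I (the OR51, OR52 and OR56 families). Spans 2 to 8 held class II genes, and the largest of them were span 5 (55343201 to 56989843, OR4A16 to OR5AK2, 46 genes) and span 8 (123753580 to 124571374, OR6X1 to OR8A1, 22 genes). The other 5 genes (OR4C13, OR4C12, OR4C46, OR4A5 and OR2AT4) stood alone. The bodies of 21 members overlapped another member, and those of 10 overlapped another protein-coding gene, so their overlaps are not separate observations.

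The promoters of these genes were poor in CG dinucleotides. RefSeq windows from 250 bases before to 50 bases after a transcript start were at hand for 135 of the members (138 windows). Their CG count had a median of 1 and ran from 0 to 14, whereas 1144 windows of 818 other genes of the chromosome, some with several starts, had a median of 21 and a range of 0 to 60. A count of 10 or more was found in 0.725% of the receptor windows and in 68.4% of the others. The median G and C content was 37% in the receptor windows and 62.3% in the others.

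**Figure D1:**
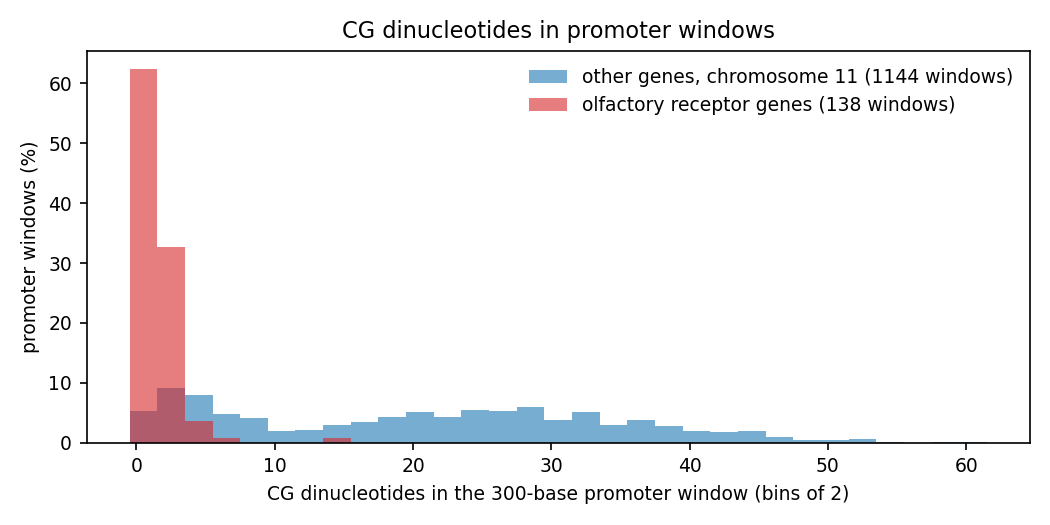
The histogram gives the percent of promoter windows (vertical axis) by the number of CG dinucleotides in the 300-base window (horizontal axis, bins of 2), for 138 windows of olfactory receptor genes and 1144 windows of other chromosome 11 genes. The receptor windows gather at the low end, with a median of 1 CG against 21.

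Windows of 4 members show the range and the cases that the results below turn on (RefSeq, GRCh38.p14, 5′ to 3′ on the gene's strand, with each CG in capitals). The OR51E1 window (chr11:4643732-4644031, plus strand, 3 CG) is shown because it was the only one of the 138 windows under an H3K27me3 peak; OR51D1 and OR8B4, whose bodies also met such peaks, have no window in the table. The window of OR52N2 (chr11:5808674-5808973, plus strand, 14 CG) had the most CG. OR52K1 (chr11:4482396-4482695, plus strand, 2 CG) met an H3K27me3 peak in its body but not in its window. The OR8J3 window (chr11:56140152-56140451, minus strand, 0 CG) belongs to a gene with Ksu peaks in all 4 Ksu libraries.
OR51E1: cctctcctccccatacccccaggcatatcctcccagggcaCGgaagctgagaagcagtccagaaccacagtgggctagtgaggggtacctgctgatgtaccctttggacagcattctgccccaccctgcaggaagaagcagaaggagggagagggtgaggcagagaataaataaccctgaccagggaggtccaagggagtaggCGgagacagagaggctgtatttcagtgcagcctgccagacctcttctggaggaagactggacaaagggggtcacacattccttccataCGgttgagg
OR52N2: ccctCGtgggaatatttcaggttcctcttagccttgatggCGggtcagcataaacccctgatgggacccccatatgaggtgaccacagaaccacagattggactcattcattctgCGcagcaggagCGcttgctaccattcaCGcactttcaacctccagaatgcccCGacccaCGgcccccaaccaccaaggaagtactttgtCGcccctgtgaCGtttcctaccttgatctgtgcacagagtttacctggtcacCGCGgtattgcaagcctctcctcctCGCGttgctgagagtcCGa
OR52K1: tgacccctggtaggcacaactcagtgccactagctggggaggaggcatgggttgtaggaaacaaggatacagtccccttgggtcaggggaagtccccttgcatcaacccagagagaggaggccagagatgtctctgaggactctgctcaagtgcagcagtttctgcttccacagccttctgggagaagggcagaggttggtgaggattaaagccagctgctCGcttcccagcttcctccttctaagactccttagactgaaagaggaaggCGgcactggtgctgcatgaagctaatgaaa
OR8J3: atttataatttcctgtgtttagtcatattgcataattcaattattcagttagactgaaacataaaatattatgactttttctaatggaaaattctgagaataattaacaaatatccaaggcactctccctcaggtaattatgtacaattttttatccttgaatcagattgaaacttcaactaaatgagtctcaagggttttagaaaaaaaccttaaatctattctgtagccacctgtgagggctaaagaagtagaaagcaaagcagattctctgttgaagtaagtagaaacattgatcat

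H3K27me3 peaks were nearly absent from the receptor genes. At least 1 base of the gene body lay under a peak in 4 (2.38%) and 0 of 168 genes in control libraries 1 and 2, and in 3 (1.79%) and 2 (1.19%) in succinate libraries 1 and 2. Among the other genes of the chromosome the share was 25.8% and 17.4% in the controls and 23.5% and 19.3% with succinate, so the receptor genes were lower in each of the 4 libraries. Of other genes no longer than the longest receptor gene, 24.3% and 16.5% were overlapped in the controls, 22.2% and 18.4% with succinate. This limit of 165335 bp kept 1049 of the 1129 other genes, so it does not match the sets in length. By the midpoint of the gene body, a measure that does not grow with length, the receptor genes reached at most 1.19% of genes in any library and the others at least 10.5%. Olfactory receptor genes on other chromosomes were overlapped in 6.85% and 2.74% of cases in the controls and 4.57% and 2.28% with succinate.

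No receptor gene was overlapped by H3K27me3 in all 4 libraries, against 181 of the other genes; over all 1297 protein-coding genes of the chromosome this share was 14%. An overlap in at least 1 library was found for 4 receptor genes (OR52K1, OR51D1, OR51E1 and OR8B4), and over all genes of the chromosome it was 24.4%. None was overlapped in both succinate libraries and neither control, a pattern that 0.463% of all genes of the chromosome showed. None was overlapped in both controls and neither succinate library (0.0771% of all). Control library 2 overlapped no receptor gene, which fixed the counts for all 4 libraries and for both controls at 0.

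The cluster spans as a whole gave the same picture. H3K27me3 peaks covered 1.12% and 0% of the span bases in the controls and 0.545% and 0.253% with succinate, while the rest of chromosome 11 was covered to between 6.66% and 10.5%. The spans held 11 and 0 peaks in the controls and 4 and 1 with succinate. Spans 2, 4 and 6 held no H3K27me3 base in any of the 4 libraries, and span 1 took 38.6 of the 63.8 kb covered in control library 1, the fullest. The median receptor gene lay 172 and 672 kb from the nearest peak in the controls and 473 and 551 kb with succinate, and the median other gene between 32.7 and 98.2 kb.

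**Figure D2:**
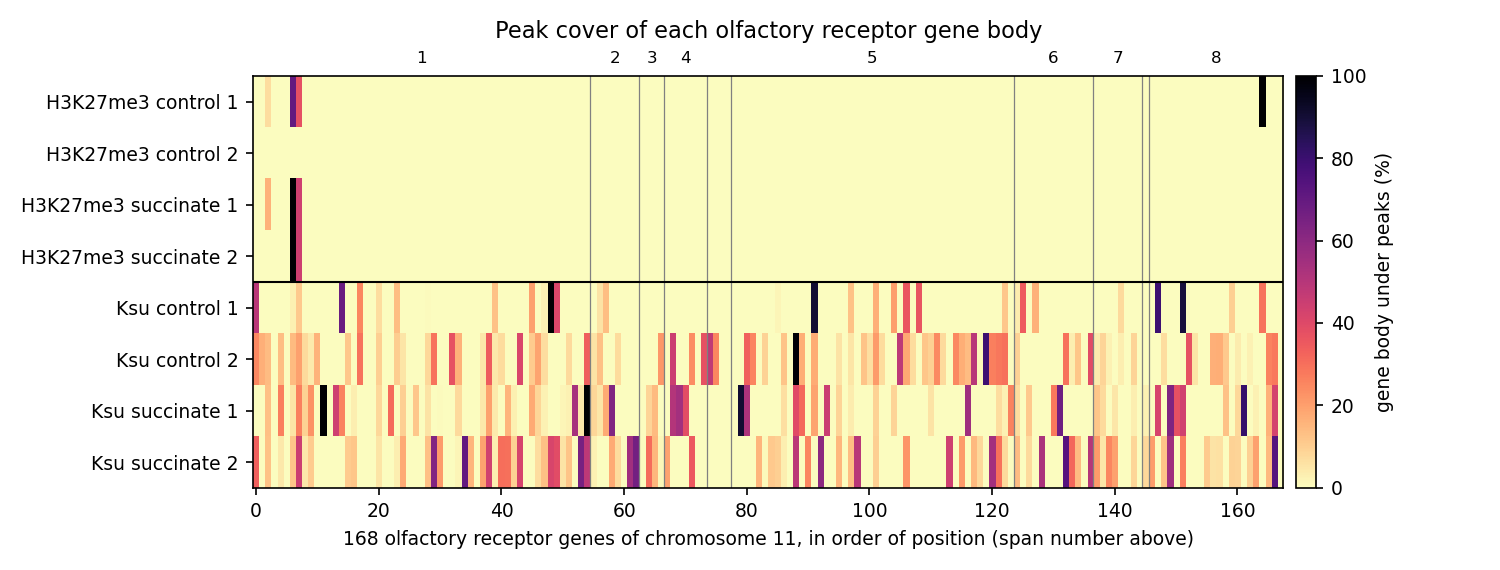
Each column is 1 of the 168 placed receptor genes in order of position, with span numbers above and grey lines between spans, and each row is a library; the colour gives the percent of the gene body under peaks. The upper 4 rows (H3K27me3) are empty except at 4 genes, and the lower 4 rows (Ksu) hold scattered genes that differ from row to row.

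The number of receptor genes with H3K27me3 differed between treatments by less than the spread of the libraries. The share of genes overlapped was 1.19% ± 1.68 (SD, n = 2) in the controls and 1.49% ± 0.42 (SD, n = 2) with succinate, a difference of 0.30 percentage points (exact two-sided permutation test over libraries, p = 1). The share of receptor gene-body bases covered was 0.928% and 0% in the controls and 1.16% and 0.997% with succinate, so both succinate libraries stood above both controls (difference 0.62 points, pooled SD 0.47, exact permutation p = 0.333). Most of these bases in control library 1 and succinate library 1, and all in succinate library 2, lay under 1 peak shared by OR51D1 and OR51E1. Span cover differed by -0.16 percentage points (pooled SD 0.58, exact permutation p = 1). The gap between receptor genes and other genes, -20.4 points in the controls and -19.9 with succinate, differed by 0.52 points (pooled SD 3.47, exact permutation p = 1). With 2 libraries against 2 this test has 6 arrangements and cannot give a p below 0.333. Nothing beyond the word replicate says that the libraries came from separate cultures, so such p-values measure only the spread between these libraries.

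The H3K27me3 peak found in most libraries within the spans, 3 of 4, lay over OR51D1 and OR51E1, neighbours in span 1 that are 921 bp apart. OR51E1 and OR51E2 are receptors known from tissues outside the nose, the prostate among them, and OR51D1 is a class I receptor. OR51E1 (4643982 to 4655488) was covered over 37.6% and 0% of its body in the controls and over 44.1% and 44.2% with succinate. OR51D1 (4637477 to 4643060) was covered over 70% and 0% in the controls and over 100% in each succinate library. Both genes shared a single peak, 9162 bp long in control library 1, 13171 bp in succinate library 1 and 14433 bp in succinate library 2, and control library 2 had none there. By total signal this peak ranked 474th of 1189 peaks on the chromosome in control library 1, 359th of 647 in succinate library 1 and 350th of 364 in succinate library 2. OR51E2, 24682 bp further on, had no H3K27me3 base in any of the 4 libraries.

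The lists differ in length, and the calls at this peak changed when they were limited. When each H3K27me3 library was limited to its 5531 peaks of highest total signal, the peak was kept in both succinate libraries and in neither control, so that 2 of 168 receptor genes were overlapped in each succinate library and 0 in each control. Span cover was then 0% in both controls and 0.231% and 0.253% with succinate (difference 0.24 percentage points, exact permutation p = 0.333, the smallest possible). With a common floor of total signal, which is the lowest value in succinate library 2 and so leaves that list whole, the peak was kept in that library alone, and with each list reduced to its upper 50% by total signal it was kept in control library 1 alone. Control library 2 lacked it under each of these settings, although its full list (418 peaks on the chromosome) is longer than that of succinate library 2 (364).

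The other receptor genes with H3K27me3 were overlapped in fewer libraries. OR52K1, a class I receptor in span 1, was covered over 6.92% of its body in control library 1 and 16.3% in succinate library 1, and not in the second libraries of either treatment. OR8B4, a class II receptor in span 8, lay wholly under a peak in control library 1 alone, which ranked 1148th of 1189. Of the 20 other protein-coding genes inside the spans, 0 were overlapped in all 4 libraries, a count fixed by control library 2, which had no peak in the spans. TRIM68, a ubiquitin ligase gene in span 1, was overlapped in control library 1 (42.0% of its body) and succinate library 1 (53.3%).

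**Figure D3:**
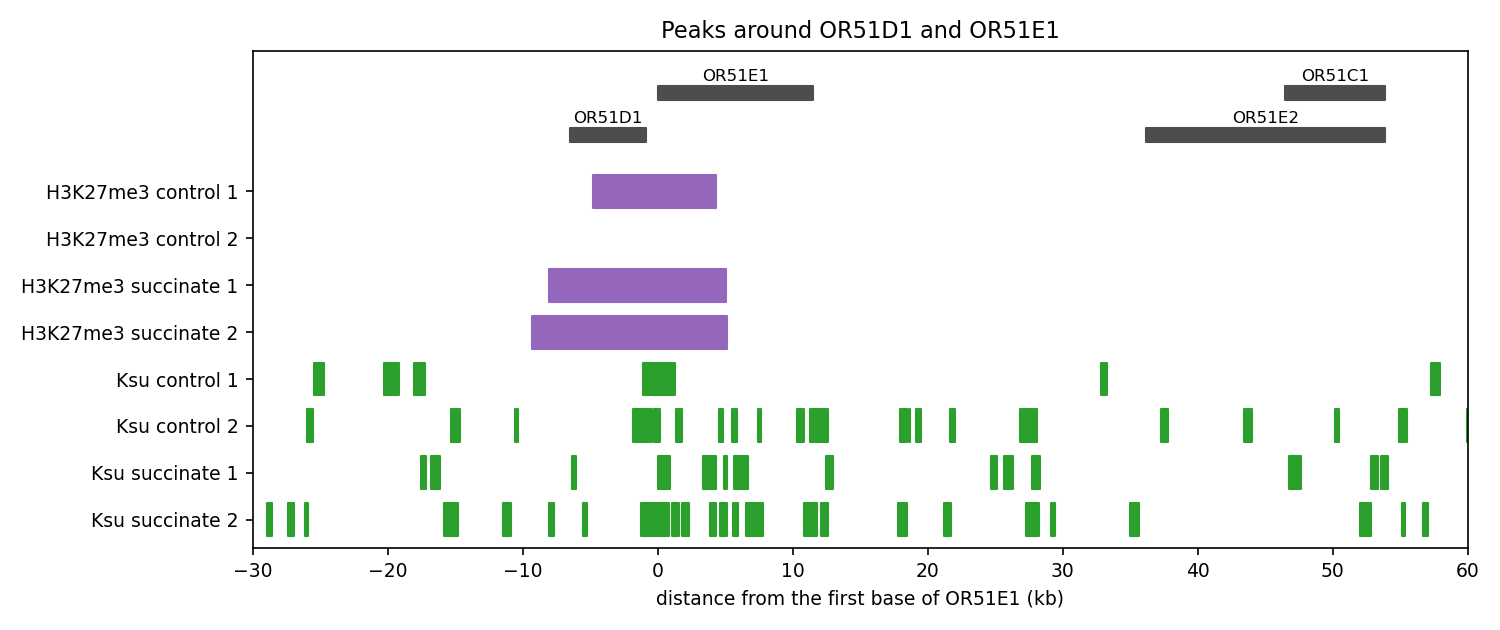
Bars show H3K27me3 peaks (purple) and Ksu peaks (green) of the 8 libraries against the distance in kb from the first base of OR51E1, with gene bodies in grey above. H3K27me3 lies over OR51D1 and the start of OR51E1 in 3 of 4 libraries and leaves OR51E2 bare, and a Ksu peak touches the start of OR51E1 in all 4 Ksu libraries.

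Outside the spans the mark came close in places. The nearest H3K27me3 peak after span 1 began 38.3 and 36.4 kb beyond it in the controls and 36.4 and 37.6 kb with succinate. It lay on CNGA4, a subunit of the olfactory cyclic nucleotide-gated channel, whose body begins 34.6 kb past the last receptor gene. CNGA4 was covered over 63.7% and 82.6% in the controls and over 82.5% and 70.5% with succinate, so all 4 libraries marked it and none marked the nearest receptor gene, OR52W1. On the other side of span 1 the nearest peak stood 149 to 173 kb away.

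Genes that act with the receptors in olfactory neurons were marked in part. Of 22 genes of olfactory signalling, receptor trafficking and receptor choice, on several chromosomes, 9 were overlapped by H3K27me3 in all 4 libraries and 8 in none. Over all 19884 protein-coding genes 12.3% were overlapped in all 4 libraries and 74.9% in none, but the listed genes are also longer, with a median of 58.5 against 24.4 kb. ADCY3, the adenylyl cyclase of the pathway, was covered over 74.7% and 76.7% in the controls and 73.1% and 71.1% with succinate. CNGB1, another channel subunit, was covered over at least 79.1% in each library, and LHX2, a homeodomain factor needed for receptor expression, over at least 87.7%. OMP, the olfactory marker protein gene, lay wholly under a peak in the first library of each treatment and outside peaks in the second. RTP1, a chaperone that brings receptors to the cell surface, was covered over 100% in both controls and 0% in both succinate libraries. Its gene body is 3977 bp long. EBF1 had the same order, with 2.91% and 2.26% in the controls and 0% in both succinate libraries. Of all genes of chromosome 11, 0.0771% were overlapped in both controls and neither succinate library. The calls at RTP1 and EBF1 were not examined with limited lists, and their cause was not tested. GNAL was covered over 22.2% in control library 1 and 14.8% in succinate library 1, and over 0% in the second libraries. ARRB2, ATF5, CNGA2, GRK3, KDM1A, LDB1, RIC8B and STOML3 had none in any of the 4 libraries. Of the olfactory neuron genes OMP, GNAL, CNGA2, ADCY3 and STOML3, ADCY3 alone was overlapped in all 4. For 13 hepatocyte genes used as a check of the line, which are shorter (median 9.83 kb), 0 were overlapped in any library.

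Receptor promoter windows rarely touched H3K27me3. In the controls 1 and 0 of 138 windows touched a peak, and with succinate 1 and 1, each time OR51E1. The 33 members without a window are not in this count, and 2 of them, OR51D1 and OR8B4, are among the 4 genes with H3K27me3 in their bodies. Windows of receptor genes on other chromosomes, also with a median of 1 CG, touched a peak in 3.76% and 2.69% of 186 cases in the controls and in 3.23% and 2.15% with succinate. Among windows of other chromosome 11 genes with 0 to 3 CG, a range that held 94.9% of the receptor windows, the shares were 10.3% and 4.24% of 165 in the controls and 6.67% and 4.24% with succinate. Among those with fewer than 10 CG (361 windows), 19.7% and 11.6% did so in the controls and 16.6% and 12.5% with succinate. Among those with 10 or more CG (783 windows), the shares were 12.5% and 8.17% in the controls and 11.1% and 8.68% with succinate. Each of these classes of other genes stood above the receptor windows of chromosome 11 in every H3K27me3 library, the 0 to 3 CG class by the least.

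Ksu peaks lay over far more receptor genes. They overlapped 31 (18.5%) and 86 (51.2%) of 168 in the controls and 75 (44.6%) and 89 (53.0%) with succinate. For the other genes of the chromosome the shares were 31.7% and 70.5% in the controls and 72.8% and 84.8% with succinate, again above the receptor genes in each library, but here the longer bodies of those genes enter the count. By the midpoint of the gene body the receptor genes were higher than the others in 3 of 4 libraries, with 4.17% against 0.974% and 8.33% against 4.52% in the controls, and with succinate 11.9% against 6.02% in library 1 and 10.1% against 13.2% in library 2. By the share of gene-body bases covered, the receptor genes had 2.94% and 7.98% in the controls and 6.58% and 12.1% with succinate. The others had 2.45%, 6.25%, 6.75% and 12.2%, so the receptor genes were higher in both controls and slightly lower in both succinate libraries. Other genes no longer than the longest receptor gene had 1.53% and 4.36% in the controls and 6.34% and 12.3% with succinate. Against these the receptor genes were higher in each library but succinate library 2.

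Receptor promoter windows touched a Ksu peak more often than windows of other chromosome 11 genes in each of the 4 libraries. They did so in 7 (5.07%) and 23 (16.7%) of 138 in the controls and in 16 (11.6%) and 22 (15.9%) with succinate. The other windows did so in 2.45% and 8.30% of cases in the controls and in 7.43% and 12.2% with succinate, which gives ratios of 2.07, 2.01, 1.56 and 1.31 in that order. Set beside other windows with fewer than 10 CG, whose shares were 3.60% and 7.48% in the controls and 13.6% and 16.3% with succinate, the receptor windows were higher in both controls and lower in both succinate libraries. Other windows with 0 to 3 CG had 1.21% and 9.09% in the controls and 10.3% and 15.8% with succinate, below the receptor windows in each library but by little with succinate. Windows of receptor genes on other chromosomes had 3.76% and 12.4% in the controls and 13.4% and 19.4% with succinate. These shares were below those of the chromosome 11 receptor windows in both controls and above them in both succinate libraries. The chromosome 11 receptor windows touched were seldom the same ones: 84 had no Ksu in any library, 42 in a single library, 11 in 2, 0 in 3, and OR51E1 alone in all 4. Its window was covered over 300 and 300 bases in the controls and 83 and 300 with succinate.

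**Figure D4:**
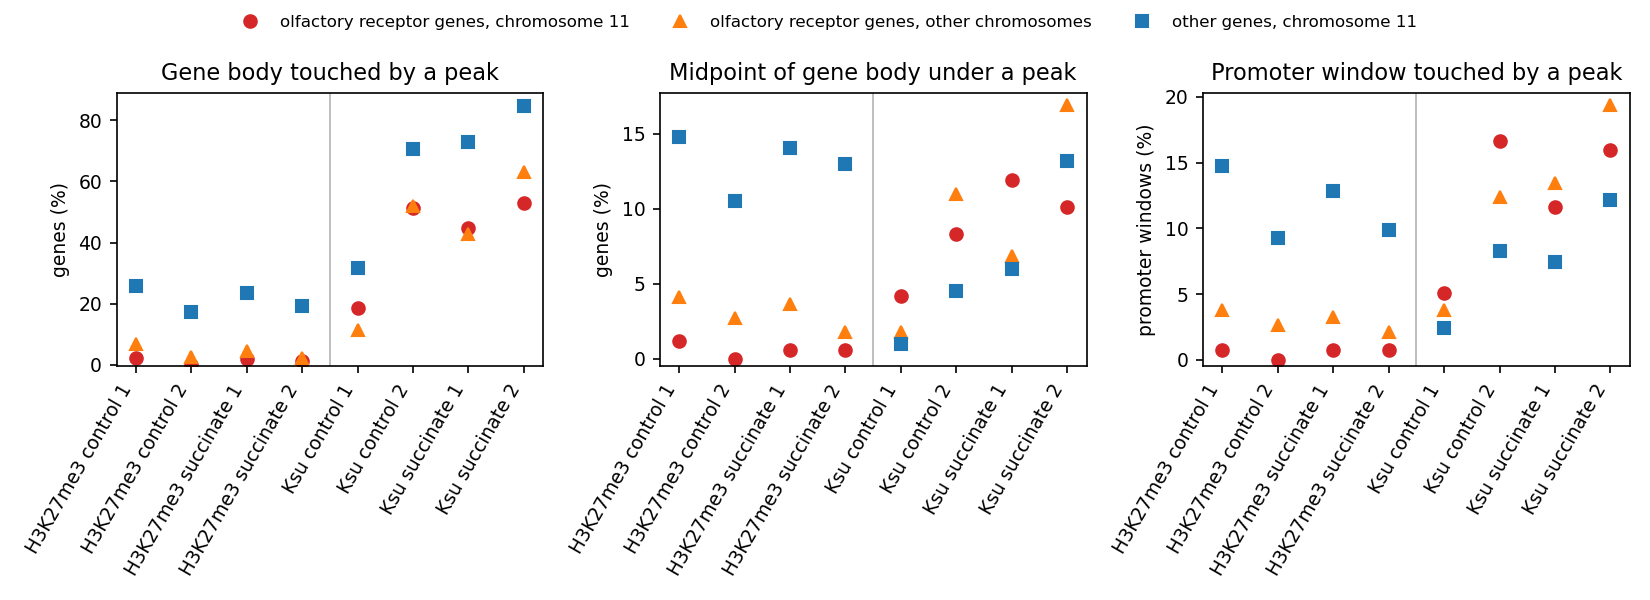
Points give, for each of the 8 libraries, the percent of gene bodies touched by a peak (left), of gene midpoints under a peak (middle) and of promoter windows touched by a peak (right), for olfactory receptor genes of chromosome 11, those of other chromosomes and other chromosome 11 genes. H3K27me3 is low at receptor genes in all panels, with at most 2.38% of gene bodies on chromosome 11, whereas Ksu at their promoter windows stands above that at other chromosome 11 genes in each library.

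Single receptor genes carried Ksu in a changing set of libraries. All 4 libraries overlapped 10 receptor genes, or 5.95% of 168, where the share over all genes of the chromosome was 25.1%. At least 1 library overlapped 141 (83.9%), where the share over all genes was 90.8%. None overlapped 27, OR52M1, OR52I1, OR51F2, OR51A4 and OR51A2 being the first by position. The 10 genes overlapped in all 4 libraries were 5481 bp (OR8J3) or longer. Median lengths were 1103 bp for the receptor genes and 18221 bp for the other genes of the chromosome. The part of gene length in these counts was not tested. OR51E1 had the highest mean cover of the 10, with 11.05% and 19.9% of its body in the controls and 26.9% and 44.9% with succinate. Both succinate libraries thus stood above both controls at OR51E1. OR51D1 had 3.01% and 14.4% in the controls and 5.10% and 12.1% with succinate, and there the treatments overlapped; in control library 1 and succinate library 2 the same Ksu peak reached both genes.

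Of the other 8, some went against that order. OR8J3, a class II receptor of span 5, had 16.5% and 20.7% in the controls and 9.14% and 10.1% with succinate. OR9G4, in the same span, had 11.6% and 29.3% in the controls and 2.37% and 7.56% with succinate. Both controls stood above both succinate libraries at these genes. At OR56B2, of class I, the values were 12.7% and 4.48% in the controls and 4.10% and 3.37% with succinate, with the same order and a narrow gap. OR5AS1 and OR51L1 overlapped between treatments, as did the long genes OR9Q1, OR51B5 and OR56A3, whose succinate values ranged from 2.69% to 13.8% and control values from 0.59% to 9.06%.

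Ksu in both succinate libraries and neither control was found at 14 receptor genes, or 8.33% of 168, and the share over all genes of the chromosome was likewise 8.33%. The reverse pattern was found at 1, OR51G1, with 25.2% and 29.1% of its body in the controls and none with succinate (0.154% of all genes). OR4D5, a class II receptor of span 8, had the most cover of the 14, with 63.3% and 55.3% in the succinate libraries. OR10A5 had 62.6% and 17.9%, OR52B2 had 4.63% and 65.0%, and OR52N1 had 15.2% and 30.01%. OR5P3, OR10A6, OR4D6, OR8B3, OR51M1 and OR9I1 followed, with 0.65% to 30.8% in a succinate library. Beside these counts, 21 receptor genes had Ksu in the second library of each treatment and in neither first library, or 12.5% of 168, more than in either treatment pattern. That share was 6.86% over all genes of the chromosome and 13.2% in receptor genes of other chromosomes. The second Ksu libraries also had the longest lists, with 19336 and 29994 peaks on chromosome 11 against 3673 and 13703 in the first; the part of list length in these patterns was not tested.

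The genes at the ends of the spans and the lone genes showed the same scatter. OR52W1, the last gene of span 1, had 0% and 33.6% in the controls and 100% and 48.1% with succinate, and OR52B4, the first, had 49.2% and 24.8% in the controls and 0% and 33.4% with succinate. OR5P2, OR4A16, OR10V1 and OR8A1, each at an end of a span, had none in any library. Of the lone genes, OR4C46 and OR4A5 had none, OR4C13 and OR4C12 had Ksu in control library 2 alone (47.3% and 25.3%), and OR2AT4, a receptor also known from skin keratinocytes, had 2.59% and 8.02% with succinate and none in the controls. OR51E2 had 0% and 7.80% in the controls and 9.60% and 4.48% with succinate.

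Across the spans Ksu cover was close to that of the rest of the chromosome, where H3K27me3 was far below it. Ksu peaks covered 2.93% and 8.77% of span bases in the controls and 5.81% and 10.9% with succinate, and the rest of chromosome 11 was covered to 2.83% and 6.93% in the controls and 6.44% and 11.5% with succinate. The ratio of span to rest was 1.04 and 1.27 in the controls and 0.902 and 0.943 with succinate. For H3K27me3 the ratio was 0.107 and 0 in the controls and 0.0589 and 0.0334 with succinate. The mean ratio was 0.988 higher for Ksu than for H3K27me3 (pooled SD 0.091), and the antibodies did not overlap; the exact permutation test within treatments gave p = 0.0556, the smallest of its 36 arrangements.

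Relative to the rest of the chromosome, Ksu cover of the spans was lower with succinate in both libraries. The log2 ratio was 0.05 and 0.34 in the controls and -0.15 and -0.08 with succinate, a difference of -0.31 (pooled SD 0.15) with no overlap between treatments and an exact permutation p of 0.333, the smallest possible. With equal numbers of peaks in each Ksu library the ratio was 1.04 and 1.29 in the controls and 0.802 and 0.911 with succinate, so the order was kept. It was not kept against the part of chromosome 11 outside genes and spans, where the ratio was 0.933 and 1.17 in the controls and 0.938 and 1.00 with succinate (log2 difference -0.11, exact permutation p = 1), nor with spans joined across gaps of up to 1 Mb (-0.04, exact permutation p = 1).

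The spans differed in this respect. In span 5, the ratio of its Ksu cover to that of the rest was 1.18 and 1.50 in the controls and 0.799 and 0.836 with succinate, and in span 4 it was 0.973 and 1.67 in the controls and 0.736 and 0.811 with succinate. Span 7 went the other way, with 0.204 and 0.589 in the controls and 0.658 and 1.02 with succinate. In span 1, with all class I genes, it was 1.09 and 1.32 in the controls and 1.09 and 1.03 with succinate. These are descriptions of 8 regions, and no difference between spans was tested.

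**Figure D5:**
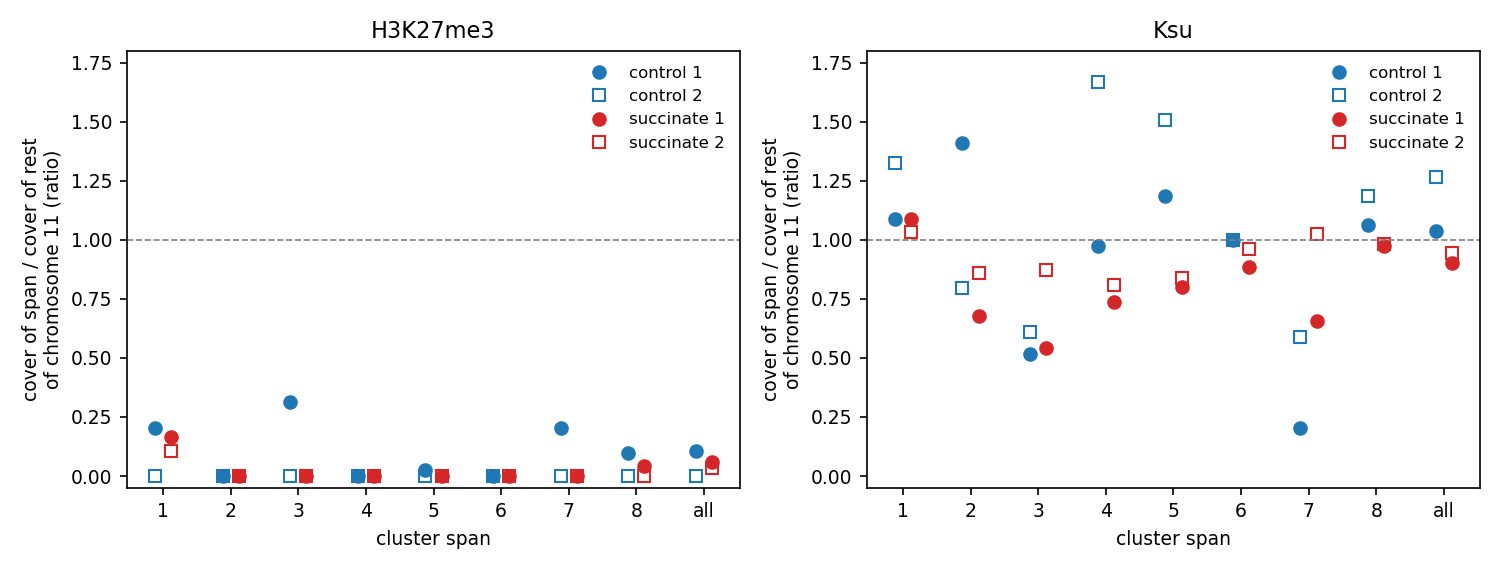
Points give the percent of a span covered by peaks over the percent of the rest of chromosome 11 covered (vertical axis) for each span and for all 8 together (horizontal axis), with controls in blue, succinate in red, first libraries filled and second libraries open. H3K27me3 ratios stay at or below 0.314, and Ksu ratios lie around the dashed line at 1, with controls above succinate in spans 4, 5, 6 and 8 and below in span 7.

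Ksu calls at the receptor genes separated the treatments by some measures and not by others. The share of genes overlapped was 34.8% ± 23.1 (SD, n = 2) in the controls and 48.8% ± 5.89 (SD, n = 2) with succinate, a difference of 14.0 percentage points (exact permutation p = 0.667). For the other genes of the chromosome the means were 51.1% and 78.8%. The log2 of span cover differed by 0.65 (pooled SD 0.91, exact permutation p = 0.667). By the midpoint of the gene body both succinate libraries (11.9% and 10.1%) stood above both controls (4.17% and 8.33%), a difference of 4.76 points (pooled SD 2.27, exact permutation p = 0.333, the smallest possible). The other genes of the chromosome had the same order by midpoint (0.974% and 4.52% in the controls, 6.02% and 13.2% with succinate), so it was not particular to the receptor genes. With 50% or more of the body covered the shares were 2.98% and 1.19% in the controls and 7.14% in each succinate library, a difference of 5.06 points (pooled SD 0.893, exact permutation p = 0.333). The other genes had 0% and 0.0886% in the controls and 0.177% and 0.620% with succinate, again in the same order. Median Ksu peak widths on the chromosome were 447 to 975 bp, so this measure depends on gene length. The bases of gene bodies covered overlapped between treatments (difference 3.86 points, pooled SD 3.73, exact permutation p = 0.667). The differences in genes overlapped and in log2 span cover turned negative with equal numbers of peaks, to -3.87 points and to -0.59 on the log2 scale (exact permutation p = 0.667 and 0.333).

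Ksu peaks of different libraries seldom covered the same bases of the spans. The Jaccard index (bases common to a pair of lists over bases in either list) was 0.0360 between the controls and 0.0559 between the succinate libraries within the spans, against 0.0306 and 0.0610 in the rest of the chromosome. It was highest, 0.0939, between the second libraries of the treatments, which also had the most span bases covered (8.77% and 10.9%). The part of cover in this value was not tested. For H3K27me3 the index was 0.547 and 0.669 in the rest of the chromosome between libraries of the same treatment, and within the spans 0 and 0.406.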

How the data were processed

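CUT&Tag was measured in 12 samples of HepG2/C3A cells, of which 8 had peak lists analysed here. Each deposited list holds, per peak, coordinates and the total and highest signal, values that the authors made with SEACR on hg38, per the submitters' processing notes. Lists are per library and not pooled. The aligner, the control track, the peak threshold and the scaling of the signal are not given in the sources used here, and the lists carry no read depth, so values come without counting intervals. Signal values were whole multiples of a step that differs between libraries (100% within 0.02), so signal was used only to rank peaks within a library or in steps. A low number of libraries limits precision.

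Genes and promoter windows came from RefSeq tables of GRCh38.p14, and coordinates are counted from 1. Peaks were intersected with gene bodies (1 bp or more), midpoints, promoter windows and cluster spans with Python 3.11.15, pandas 2.3.3 and numpy 2.4.6. Scripts were tested on simulated peaks. Treatments were compared by exact two-sided permutation of libraries. The members and lists were chosen with earlier results of these data known. Genes were named by rule: members with an H3K27me3 peak in any library; the 10 with the highest mean Ksu cover among those overlapped in all 4 Ksu libraries or only in both libraries of a treatment; the first 5 without Ksu; lone members; OR51E1, OR51E2 and span ends. Of the pathway genes, and for span comparisons, examples were chosen after their values were seen, as were the splits of other promoters by CG count and the test of gene-body bases. Alternatives covered peak selection, overlap rule, span gap, left-out libraries and the replicate number.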

Additional observations from a re-analysis of the deposited data

How the results depend on the processing

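Of 76 alternatives to the 7 tested results, 51 kept the sign and stayed within the spread of the libraries, 6 of them replicate blocks, which cannot change it. In 3 more the H3K27me3 difference in genes overlapped was 0 (midpoint, 50% of the body, without succinate library 1). No p could pass 0.05 in this design, so stability refers to signs and sizes only. Placing the 3 scaffold genes at their table positions moved none of the 7 beyond the spread of the libraries. Those positions are counted along scaffolds, so these 7 alternatives, which are among the 51, do not inform on those genes. With the upper 50% of each list by total signal, the H3K27me3 difference in genes overlapped (succinate minus control, percentage points) became -0.89. With equal numbers of peaks, H3K27me3 span cover became 0.24 points, the receptor-minus-other gap in H3K27me3 -0.27 points, Ksu genes overlapped -3.87 points and Ksu span cover -0.59 (log2). With a common floor, which leaves the list with the highest floor whole, H3K27me3 span cover became 0.13 points, the H3K27me3 gap -3.92 points, Ksu genes overlapped -1.79 points and the Ksu span-to-rest log2 ratio -0.58. On chromosome 11 this floor left 3673 and 140 Ksu peaks in the controls and 1789 and 1597 with succinate, so the Ksu values rest on very unequal lists. With midpoints the H3K27me3 gap became -0.89 points, and with 50% of the body covered -1.06. Spans joined across 1 Mb gave -0.0378 for the Ksu log2 ratio and 0.739 for the ratio difference between antibodies. With the chromosome outside genes as denominator, chosen after seeing the data, the Ksu log2 ratio was -0.11. The cause of these shifts was not tested.

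Leaving out single libraries gave -0.89 to 1.49 points for H3K27me3 genes overlapped (negative without control library 2), -0.72 to 0.40 for H3K27me3 span cover (positive without control library 1), -2.45 to 3.49 for the H3K27me3 gap (negative without control library 1 and, at -1.26, without succinate library 2), -2.38 to 30.4 for Ksu genes overlapped and -0.14 to 1.44 for Ksu span cover (both negative without control library 1), -0.46 to -0.17 for the Ksu log2 ratio, and 0.888 to 1.09 for the difference between antibodies. Nothing in the labels ties libraries of the same number across treatments. With the replicate number as a replicate block the differences were the same by construction, for example -0.31 for the Ksu log2 ratio, made up of -0.20 in the first pair and -0.43 in the second. Peak lists give no reads, so a gene without a peak is one not called, and lists of 364 to 1189 H3K27me3 peaks and 3673 to 29994 Ksu peaks on chromosome 11 limit what could be seen.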
